A study of Mus musculus with 6 samples.

Results

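A set of 8 secretory genes best known from other lobes of the mouse prostate and from the seminal vesicle were read in ventral prostate RNA. They are Msmb, Tgm4, Svs1, Svs2, Svs3a, Svs4, Svs5 and Svs6, chosen by name, with earlier results of these data known. Each had 1 probe, so 8 of 41174 probes, or of 30820 gene names, in all. The data were 6 2-colour Agilent arrays, on which the green dye (Cy3) always carried young wild type RNA and the red dye (Cy5) carried 1 of 3 groups, with 2 arrays each. The groups were the fl26 line, transgenic for 15-LOX2 (15-lipoxygenase 2), the svb9 line, which carries splice variant b of that gene, and old wild type mice. Wild type, fl26 and svb9 mice were 2.5 months old and old mice 15 months, all on the FVB background. Each sample was a pool, of 3 mice by its label or of 6 by the design text, which calls the 2 arrays of a group biological replicates. Each transgene was represented by 1 line, and its promoter is not given in the sources used here. With no dye swap, a dye effect and a group effect cannot be told apart in any comparison with young wild type. The labels do not say whether 1 young pool served several arrays.

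Rodent semen sets into a firm plug after ejaculation. The seminal vesicle supplies the substrates, a set of fast-evolving proteins that include Svs2, and Tgm4, a transglutaminase secreted by the dorsal and anterior prostate, joins them by cross-links between glutamine and lysine. Msmb, beta-microseminoprotein, is a small cysteine-rich protein of seminal plasma known from the dorsal and lateral lobes of rodents. The ventral lobe is known for other products, such as the spermine-binding protein Sbp and the trypsin inhibitor Spink1. Sbp and Spink1 were saturated in green or red on all 6 arrays here, so both of these products of the labelled tissue were abundant. The list of 5 ventral products also held Pbsn (probasin), at 23653 to 46564 intensity units above local background in green. Its other members were dimmer, with Mt3 at 137 to 296 units and Ang at 118 to 181.

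The 8 genes fell into 3 patterns of detection. Msmb was well above background, meaning that the spot's signal passed the scanner software's test against its local background, in 12 of 12 channels (6 arrays, green and red). Tgm4 passed in 10 of 12, with all 6 green and 4 red channels. The Svs genes passed in 5 of 72 spots (6.94%), against 54.7% of all probe spots on the same arrays. Svs5 accounted for 3 of those spots and Svs1 for 2, and Svs2, Svs3a, Svs4 and Svs6 passed in 0 of 12 channels each. Among all probes, 77.7% passed in at least 1 channel, 58.1% in green on all 6 arrays and 7.75% in all 12, against 4, 2 and 1 of the 8 genes.

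**Figure D1:**
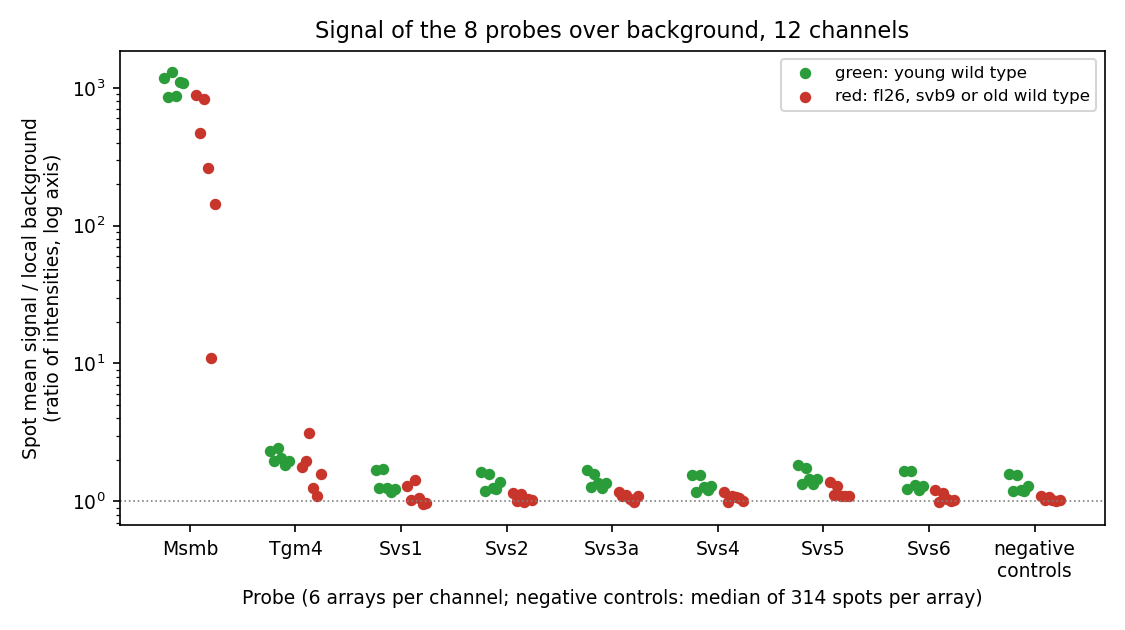
Each point is 1 spot, given as its mean signal divided by its local background on a log axis, for the 8 probes and for the median of 314 negative control spots per array, in green (young wild type) and red (fl26, svb9 or old wild type). Msmb lies far above the line at 1 in every channel, Tgm4 lies above it in every channel, and the 6 Svs probes lie in or near the range of the negative controls.

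The red channel differed in depth between arrays more than the green. The number of red probes well above background was 27151 on fl26 array 1, 27833 on svb9 array 1, 17623 on fl26 array 2, 14620 on svb9 array 2, 13600 on old array 2 and 3219 on old array 1. In green it ranged from 24837 to 30382. Images were extracted on 3 dates. The 2 arrays numbered 1 of the transgenic lines shared the first date, fl26 array 2 shared the second with old array 1, and svb9 array 2 the third with old array 2, so each date held at most 1 array of a group. Red values below are to be read beside this difference between arrays, and its part in them was not tested. In pooled tissue, fewer cells that make a transcript and less of it per cell cannot be told apart.

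Msmb was high in young wild type on every array. Its green signal above local background was 47874 and 36236 intensity units on the fl26 arrays, 54341 and 36444 on the svb9 arrays and 49122 and 44381 on the old arrays. None of these 6 spots was saturated. After scaling between channels the green level lay between 14.11 and 15.14 on the log2 scale, with an SD of 0.52 over the 5 arrays with a usable spot. That SD was above those of 98.2% of the 23931 probes detected in green on all 6 arrays, whose median SD was 0.126. Scaled instead to the 75th percentile of each array's processed signal, the SD was 0.403 over all 6 arrays, the outlier spot's array included. The highest of the 5 levels were those of fl26 array 1 and svb9 array 1, whose red Msmb spot was saturated. The level after loess is computed from both channels of a spot. The red signal therefore enters it, and its SD is not that of the green signal alone.

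The red signal of Msmb spanned a far wider range. It was 65130 on fl26 array 1 and 65127 on svb9 array 1, where the scanner was saturated, so these are lower bounds. It was 38226 on fl26 array 2, 21548 on svb9 array 2 and 11403 on old array 2. On old array 1 it was 773, and the software flagged that spot as an outlier, so it was left out of the fit. Each group therefore had 1 array with a spot that was neither saturated nor an outlier.

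The log2 ratio of Msmb, group over young wild type after loess normalization, was -1.16 and 0.36 on the fl26 arrays. The svb9 arrays gave -1.22 and 0.38, and old array 2 gave 0.30. The negative values are those of the 2 arrays with a saturated red spot, where the red level is a lower bound. On the unsaturated arrays the 3 groups gave 0.30 to 0.38, which do not separate.

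In limma's fit the mean log2 ratio of Msmb was -0.40 ± 0.49 in fl26 (SE, n = 2, 95% interval -1.63 to 0.83, adjusted p = 0.829) and -0.42 ± 0.49 in svb9 (n = 2, -1.65 to 0.81, adjusted p = 0.981). In old wild type it was 0.30 ± 0.69 (n = 1, -1.44 to 2.05, adjusted p = 0.897), from 1 of 2 arrays, so the error there comes from the spread of the fl26 and svb9 arrays, their saturated spots included. With the replicate number as a block, Msmb passed in fl26 (limma adjusted p = 0.0494), still at -0.40, a mean that includes the saturated array. In that fit 1001 of 27860 tested probes passed in fl26, against 14 in the main fit. With saturated spots missing, the remaining array gave 0.40 in fl26 and 0.39 in svb9, single values with no spread of their own for Msmb.

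On svb9 array 2 and old array 2 the direction of Msmb depended on the normalization, whereas the fl26 arrays and svb9 array 1 kept theirs. Centring each array on its median, which does not bend with intensity, gave -0.15 and 0.07 in fl26, -0.39 and -0.62 in svb9 and -1.77 on old array 2. The scanner software's own ratios were -1.08 and 0.24 in fl26, -1.15 and 0.13 in svb9 and -0.12 on old array 2. Probes of similar brightness moved too. On old array 2 the 94 probes within 1 log2 unit of Msmb in mean intensity had a median of -1.22 after median centring, and 17.0% of them lay below Msmb. On svb9 array 2 the 77 such probes had a median of -0.69, with 55.8% below Msmb. On fl26 array 2 the 73 such probes had a median of -0.02, with 72.6% below Msmb. Msmb thus lay within the spread of equally bright probes on each of the 3 arrays where its spot was usable.

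**Figure D2:**
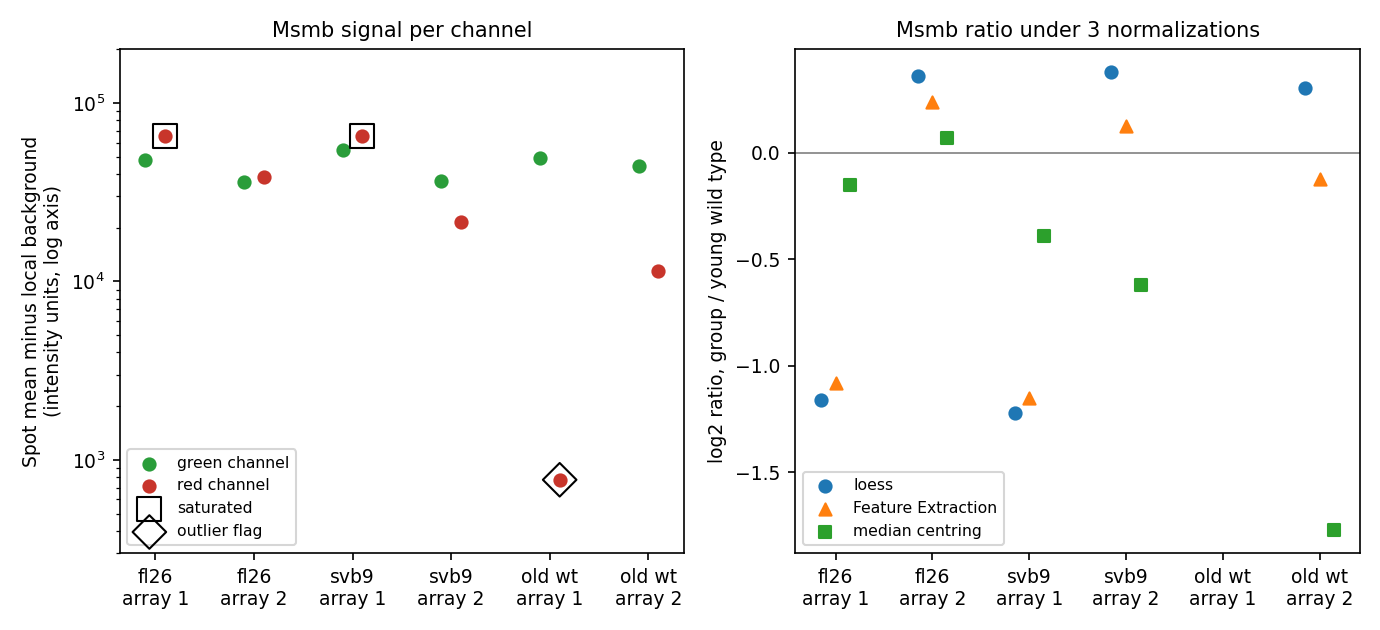
Left, the signal of the Msmb spot above local background on each array (log axis), in green for young wild type and red for the group, with squares for saturated and a diamond for an outlier spot. Right, the log2 ratio of group over young wild type under 3 normalizations, with no value for old array 1. The green points lie between 36236 and 54341 and the red points fall from 65130 to 773, and on old array 2 the ratio reads 0.30, -0.12 or -1.77 depending on the normalization.

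Tgm4 had a low but detected signal in young wild type. The green signal above background was 49.4 and 37.7 units on the fl26 arrays, 55.9 and 40.5 on the svb9 arrays and 35.6 and 38.1 on the old arrays, each well above background. The median of the 314 negative control spots in green was 7.44 to 23.4 units. The 6 green levels lay between 6.33 and 6.52 on the log2 scale (SD 0.075, n = 6) after background correction with an offset of 50 units, which narrows the spread of dim spots. The processed signal without that offset, scaled to each array's 75th percentile, had an SD of 0.270.

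In red, Tgm4 was 61.4 and 73.0 units on the fl26 arrays and 177.6 on svb9 array 1, all well above background. It was 19.4 on svb9 array 2 and 6.43 on old array 1, neither well above background, and 44.3 on old array 2. So svb9 and old wild type each had 1 array with a measured red level. The red signal of all probes differed as well, with a 75th percentile of 325.6 on fl26 array 1, 328.4 on svb9 array 1, 83.9 on fl26 array 2, 52.6 on svb9 array 2, 43.7 on old array 2 and 6.63 on old array 1.

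The log2 ratio of Tgm4 was -0.15 and 0.68 in fl26, 0.51 and 0.02 in svb9 and 0.16 and 0.73 in old wild type. The 3 groups overlapped, and the arrays of a group lay further apart than the group means did. Within the first date the ratio was -0.15 for fl26 and 0.51 for svb9, within the second 0.68 for fl26 and 0.16 for old wild type, and within the third 0.02 for svb9 and 0.73 for old wild type. The fit gave 0.27 ± 0.23 in fl26 (SE, n = 2, 95% interval -0.30 to 0.83, limma adjusted p = 0.746) and 0.26 ± 0.23 in svb9 (n = 2, -0.30 to 0.83, limma adjusted p = 0.980). Old wild type gave 0.45 ± 0.23 (n = 2, -0.12 to 1.02, limma adjusted p = 0.518). The offset of 50 units added in background correction shrinks the ratios of dim spots. The scanner software's ratios, which also differ in background and dye correction, were -0.32 and 1.53 in fl26, 0.95 and 0.01 in svb9 and 0 and 1.89 in old wild type, again with overlap.

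**Figure D3:**
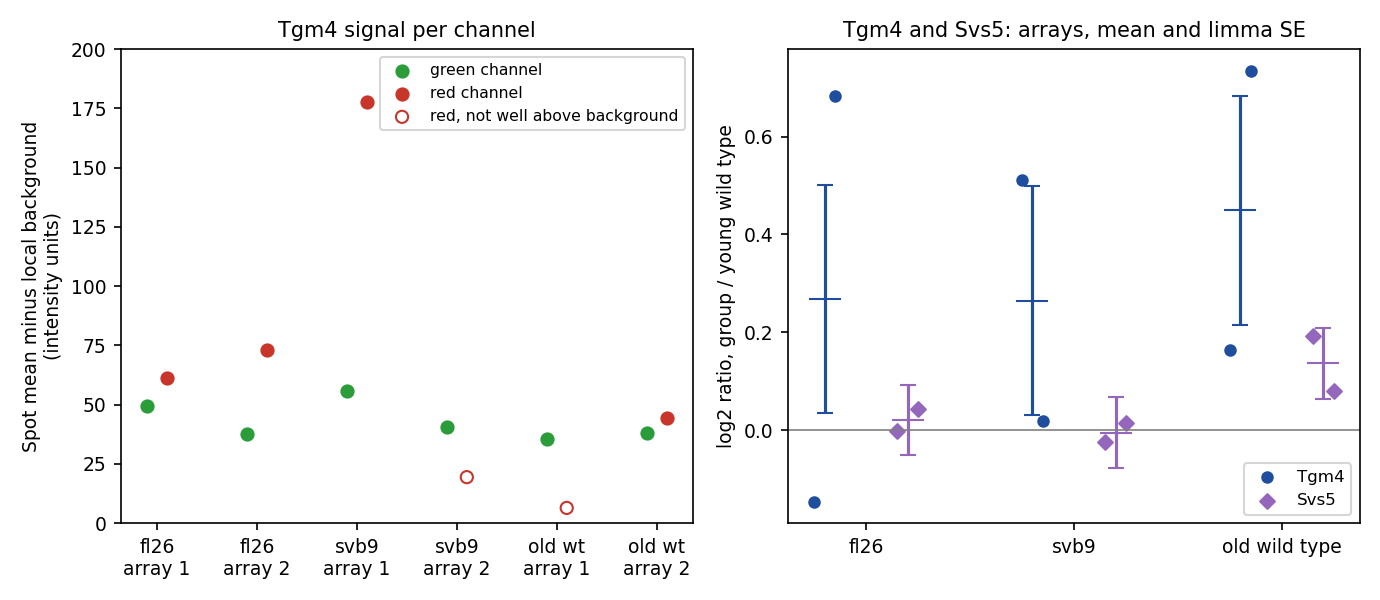
Left, the signal of the Tgm4 spot above local background on each array, with open circles where red was not well above background. Right, log2 ratios of group over young wild type for Tgm4 and Svs5 on each array, with the mean and limma's standard error. The green points lie between 35.6 and 55.9 units, red reaches 177.6 units on svb9 array 1, and the Tgm4 ratios of the 3 groups overlap.

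The Svs genes code for the secretory proteins of the seminal vesicle. Svs2, Svs3a, Svs4, Svs6 and Svs5 lie side by side on chromosome 2 in the reference gene table (GRCm38.p6), with Svs3b among them. The Svs3a probe also carries the accession of Svs3b, so it reads both. Svs1, an amine oxidase-like protein, lies on chromosome 6, Tgm4 on chromosome 9 and Msmb on chromosome 14.

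The signal of the 6 Svs probes above local background ran from 6.57 to 32.5 units in green (median 13.7) and from -3.21 to 35.4 in red (median 6.28). The negative controls, 314 spots of a single control sequence, had array medians of 7.44 to 23.4 in green and 1 to 7.10 in red. Of the 72 Svs spots, 24 (33.3%) exceeded the 95th percentile of the controls on their array and 2 exceeded the highest control. Svs5 made up 12 of the 24 and both of the 2, which were its green spots on svb9 array 2 and old array 2. The other 12 were 5 of Svs3a, 3 of Svs1, 2 of Svs4 and 1 each of Svs2 and Svs6.

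Svs5 was the Svs probe above the 95th percentile of the controls in all 12 channels, though in 10 of them the highest control was brighter. Its green signal was 32.5 and 13.8 units on the fl26 arrays, 30.2 and 18.03 on the svb9 arrays and 14.1 and 17.7 on the old arrays. In red it was 30.2 and 7.97, 23.5 and 7.13, and 6.48 and 7.69 units on the same arrays. It was well above background in green on fl26 array 1 and both svb9 arrays, and in red on none. Its median excess over the median control was 6.42 units. Because red was not well above background on any array, its ratio gives no measured level for the groups. The fitted log2 ratios were 0.02 ± 0.07 for fl26, -0.0058 ± 0.07 for svb9 and 0.14 ± 0.07 for old mice (SE, n = 2 each), with limma adjusted p of 0.950, 0.998 and 0.527. Svs5 is a small clot protein related to Svs2, and how much of this weak signal comes from its RNA was not tested.

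On svb9 array 1 Svs5 was well above background in green alone, whereas Svs1 was in both channels. Svs1 had 30.3 units there in green and 35.4 units in red. On fl26 array 1, extracted on the same date, it had 28.0 units in green and 23.8 in red, and neither was well above background. On the other 4 arrays it had 6.57 to 10.4 units in green and at most 4.64 in red. On those 2 arrays of the first date the green negative controls were also high, with medians of 23.4 and 21.8 units against 7.44 to 11.2 elsewhere, and the part of this in the Svs1 signal was not tested.

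Svs2, the major clotting protein of the rodent plug, had 8 to 24.2 units in green and -1.44 to 12.3 in red. Svs4, a small androgen-regulated protein, had 7.23 to 21.4 in green and -0.34 to 13.1 in red. Svs3a and Svs6, both related to Svs2, had at most 26.0 and 25.6 in green and 14.1 and 16.0 in red. Their highest values also came from the first date. With both groups of each comparison at background, no fold is given for these 4 genes. Over all 6 Svs probes and 6 arrays, the 36 log2 ratios lay between -0.05 and 0.19 after loess and between -0.46 and 0.36 after median centring. At background these ratios measure no change, and the scanner software set 28 of the 36 to exactly 0.

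**Figure D4:**
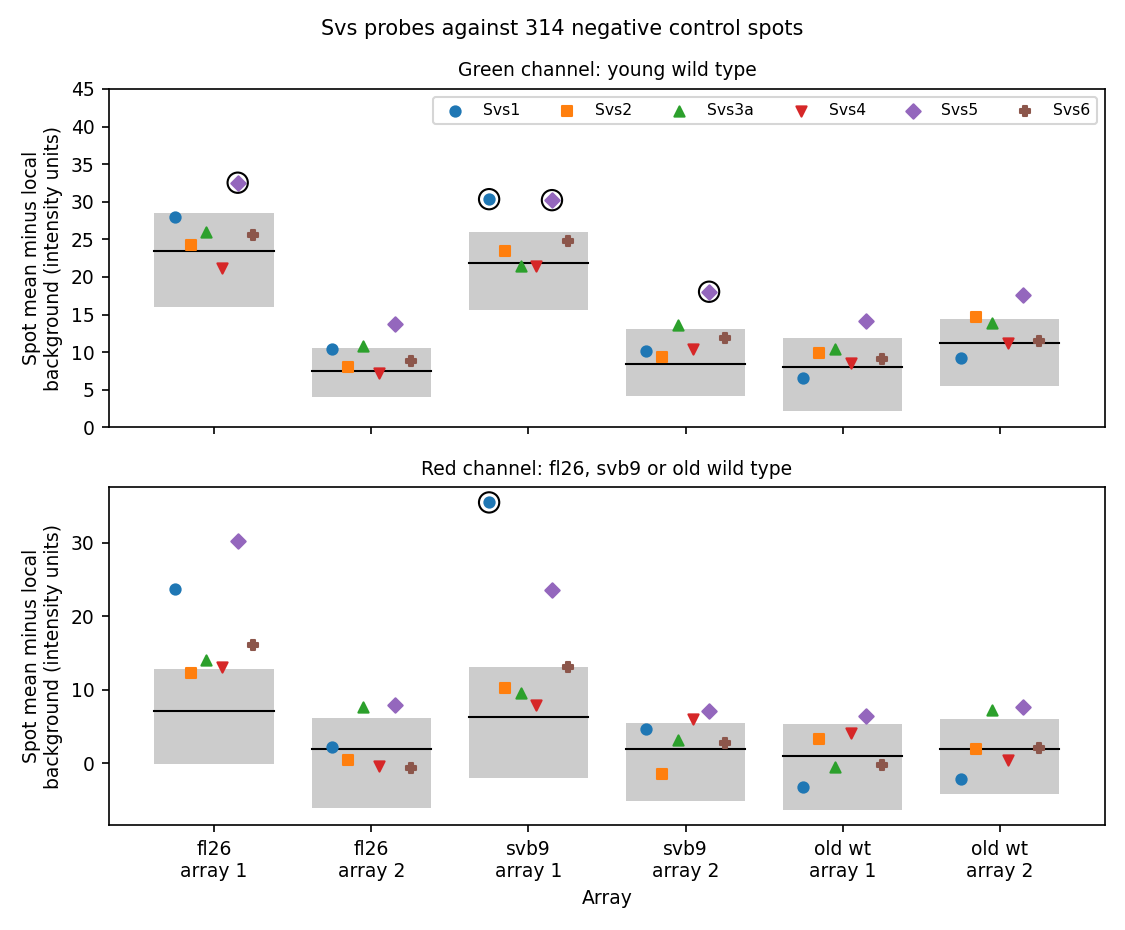
Signal of the 6 Svs probes above local background on each array, in green (top) and red (bottom), with the 314 negative control spots as a grey band from their lowest value to their 95th percentile and a line at their median. Circled points are well above background. These are 5 of 72 spots, 3 of Svs5 and 2 of Svs1, and most of the other points lie in the band.

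None of the 3 genes that entered the test across all probes was called. Msmb, Tgm4 and Svs5 were among the 27860 probes tested (67.7% of all), a set limited to probes with detected signal on both arrays of a group in 1 channel. Svs5 entered through green alone and had no measured red level, so its part in the counts below says nothing about the groups. In fl26 against young wild type 0 of 3 passed limma's test at an adjusted p under 0.05, against 0.0503% of all tested probes. At an unadjusted p under 0.05 it was also 0 of 3, against 10.2% of tested probes. In svb9, 0 of 3 passed, against 0% of all, and 0 of 3 at an unadjusted p under 0.05, against 4.45%. In old wild type, 0 of 3 passed, against 0% of all, and 0 of 3 at an unadjusted p under 0.05, against 11.4%. Between groups, 0 of 3 passed in each comparison, against 0% of all, and at an unadjusted p under 0.05 0 of 3 passed, against 2.18% (fl26 against svb9), 7.74% (old against fl26) and 4.71% (old against svb9). The comparisons of the 3 groups with one another share arrays with those above.

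The standard errors pool the spread of all 6 arrays, moderated across probes, so a value from 1 array, such as that of Msmb in old wild type, borrows its error from the other groups. A p that missed the threshold does not show that levels were alike, and the interval of Tgm4 in old wild type reached 1.02 on a scale that the offset shrinks.

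Other products of the seminal vesicle were read from a list of 10 genes, of which 8 had a probe. Pate4 and the Kazal-type inhibitor Spinkl were well above background in 0 of 12 channels. Sva, the seminal vesicle autoantigen that binds sperm, passed in 6 of 6 green channels, with 24.3 to 44.8 units. Sval1, Sval2, Wfdc15b and Ceacam10, a secreted adhesion molecule relative, also passed in all 6, as did 58.1% of all probes, and Wfdc15a passed in 5. In red each of these 6 passed in 2 or 3 of 6 channels. Of the 6 tested genes 0 passed in any of the 3 comparisons with young wild type. Of all tested probes 0.0503% (fl26), 0% (svb9) and 0% (old wild type) passed. With shares this low, 0 passing genes in this or a later list say little about the list. The median log2 ratios of the 6 genes were -0.02 (fl26), 0.01 (svb9) and 0.00 (old wild type). The median over all tested probes was 0.00, -0.00 and -0.02.

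The chromosome 2 neighbours of the Svs genes passed in more green channels than the Svs genes of that cluster. In gene order, Wfdc12, Wfdc15a and Wfdc15b precede Svs2, and Slpi, Matn4 and Rbpjl follow Svs5. These 6 flanking probes were well above background in 5 or 6 of 6 green channels and 2 or 3 of 6 red channels each. Wfdc12, Wfdc15b and Matn4 passed in green on all 6 arrays, as did 58.1% of all probes, so such detection is common on these arrays. Svs2, Svs4, Svs3a and Svs6 between them passed in 0, and Svs5 in 3 green and 0 red channels. Slpi, a leukocyte protease inhibitor, had 11.2 to 39.3 units in green and Wfdc12 had 26.0 to 76.5. The range of Slpi overlaps that of Svs5. In the wider list of this locus, 12 of 13 genes with a probe were tested and 0 passed in any comparison with young wild type. Of all tested probes 0.0503% passed in fl26 and 0% in svb9 and in old wild type. Eppin, a sperm-coating protease inhibitor, had log2 ratios of 0.21, 0.14 and 0.11 in the fl26, svb9 and old groups. Sys1 had -0.25, -0.26 and -0.41, and Sdc4 had -0.66 in fl26. The list's median was -0.0007, 0.04 and 0.01. Above 0 were 6 of 12 genes in fl26, 8 of 12 in svb9 and 6 of 11 in old wild type.

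Among the relatives of Tgm4, 7 of 8 transglutaminase family genes had a probe and 5 were tested. Tgm2, the tissue transglutaminase, was well above background in all 12 channels, with 2549 to 3063 units in green. Its log2 ratio was 0.40 ± 0.09 in fl26 (n = 2) and 0.11 ± 0.09 in svb9 (n = 2). In old wild type it was 1.34, from old array 1 alone. That array had the fewest red probes well above background (3219), and the part of this in the value was not tested. Tgm5 had 0.22, 0.15 and 0.57 and F13a1, the catalytic subunit of clotting factor XIII, 0.45, 0.03 and 0.11 in fl26, svb9 and old wild type. None of the 5 passed in any of the 3 comparisons, against 0.0503%, 0% and 0% of all tested probes. The family's median was 0.22, 0.03 and 0.11.

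Kallikreins and their inhibitors, the proteases that dissolve semen clots and those that hold them back, had 24 of 29 genes with a probe and 19 tested. The median log2 ratio was -0.02 for fl26, -0.02 for svb9 and 0.01 for old mice. In these comparisons 0 of the 19 passed, against 0.0503%, 0% and 0% of all tested probes. Klk1b8 (124 to 199 units in green) and Klk4 (78.7 to 176) were well above background in 6 green and 5 red channels, whereas Klk1b1, Klk1b16, Klk6 and Serpina5 passed in none. Klk1b genes are near-identical copies, so which one a probe reads is uncertain. Amine oxidases, the enzyme family to which Svs1 is related, had 8 of 10 genes tested, with medians of 0.23, 0.04 and -0.02. Maoa had 0.37 ± 0.09 in fl26 (n = 2, limma adjusted p = 0.307) and Aoc1, the diamine oxidase, was well above background in 0 channels.

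Genes of the epididymis, another part of the male tract, were mostly not detected. Of 6 genes 5 had a probe, and Crisp1, Lcn5, Lcn8 and Defb20 were well above background in 0 of 12 channels, while Adam7 passed in 2 green channels. Crisp2 and Crisp3, of the same cysteine-rich family, passed in 0. By contrast, 7 of 7 luminal epithelial markers of the prostate passed in all 6 green channels, as did 58.1% of all probes. Some markers of other tissues passed too, most at low signal. In all 6 green channels 4 of 5 skeletal muscle genes passed, beside the same 58.1% of all probes. Acta1 was brightest, at 830 to 1646 units, and the green medians of Tnnt3, Myh4, Myl1 and Ckm were 196, 52.3, 38.3 and 31.8. So did 3 of 5 urothelial genes pass, a share near that of all probes. Upk1a was brightest, at 479 to 845 units, and the green medians of Upk2, Upk1b, Upk3a and Krt20 were 64.5, 47.9, 20.9 and 17.9. Probasin (Pbsn), an androgen-driven secretory product, passed in all 12 channels, with a log2 ratio of 0.14 ± 0.67 in fl26 and -0.04 ± 0.67 in svb9 (n = 2 each), and its red spot was saturated on 1 array.

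Genes with a level most like that of Msmb over the channels were Grn (Pearson r = 0.93), Defb50 (0.91), Rplp2 (0.91), Rplp0 (0.89) and Rps21 (0.88), over the 10 channels with a value. For Tgm4 they were Whsc1 (0.95), TC951066 (0.91), Kdm5b (0.90), Il17ra (0.89) and Olfr1134 (0.88), over 12 channels. For Svs5, taken as the brightest Svs probe, they were Grasp (0.97), Stac3 (0.95), Tgfa (0.95), Htr1f (0.95) and Inka2 (0.95), over 12 channels. Candidates were 19872 genes (19873 for Svs5) well above background in at least 6 of 12 channels. These correlations describe channels that share an array, a dye and its depth, and the 6 green channels all hold young wild type RNA, so they carry no test.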

How the data were processed

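The authors read the scans with Agilent Feature Extraction software, as the headers state. The deposited files hold each spot's mean intensity, its background intensity and flags for signal well above background (2.6 background SDs or more, with a significance test), saturation and outliers. The deposited log10 ratios were background-subtracted and dye-normalized by that software, per the file headers, and the deposited series table holds them rounded.

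Here, R 4.3.3 with limma 3.58.1 and data.table (version 1.17.8) was used. Control spots (2256 of 43790) and outlier spots were left out, background was corrected by normexp with an offset of 50, and each array was normalized by loess. Aquantile scaling gave channel levels. A model of 3 group means over 6 arrays was fitted to all 27860 tested probes, with 2-sided tests and Benjamini-Hochberg adjustment at 0.05. The model was tested on simulated data.

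Of the 8 probes, 6 were named in the file as the gene and 2 through their RefSeq accession in the reference gene table (GRCm38.p6). All probes of the 8 genes are reported by rule, the other genes by list and the most alike by correlation. The members and lists were chosen with earlier results of these data known, and the comparisons with negative controls and with equally bright probes after their values were seen.

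Replicate numbers 1 and 2 are shared by the groups but not described as a pairing. Deviations of same-numbered arrays correlated with r = 0.61 (fl26 and svb9), 0.33 (fl26 and old) and 0.17 (svb9 and old), so a blocked fit stands beside the result whose call it alters. Array number limits the precision.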

Additional observations from a re-analysis of the deposited data

How the results depend on the processing

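Over the 6 comparisons, 107 of 108 counts of called members under the alternatives equalled the main count of 0. The exception was the replicate block in fl26, with 1 member called, Msmb (-0.402, limma adjusted p = 0.0494), a mean that includes a saturated spot. In that fit the count over all probes rose from 14 to 1001, against 121 with the image extraction date as a term, 63 with a trend in the variance and 0 with median centring. With the block Msmb in old wild type turned to -0.476, with the date term to -0.256, with the scanner software's ratios to -0.123 and with median centring to -1.77. Old wild type had a Msmb value on old array 2 alone. The block and date terms applied to it therefore came from the fl26 and svb9 arrays, their saturated spots included. With saturated spots missing Msmb turned to 0.402 in fl26 and 0.390 in svb9, the values of the array left in each. Svs5 turned to -0.0963 in fl26 with median centring and to 0.0201 in svb9 with the date term. Leaving out 1 array at a time gave -1.16 to 0.357 for Msmb, -0.146 to 0.682 for Tgm4 and -0.0013 to 0.0421 for Svs5 in fl26, and -1.22 to 0.378 for Msmb and -0.0255 to 0.0138 for Svs5 in svb9, with 0 members called. The cause of these turns was not otherwise tested. The strict filter, which asks for signal well above background in all channels, dropped Tgm4 and Svs5, so it gives no value for them. Scaling channels by the 75th percentile of the processed signal gave green levels of 7.70 to 8.81 for Msmb and -2.17 to -1.38 for Tgm4. Signal over background limits Tgm4 in red to 4 of 6 arrays, and the Svs probes to 5 of 72 spots.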
